A study of Mus musculus with 80 samples.

Results

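The 10 genes described here are the transcription factors that build and keep the identity of midbrain dopaminergic neurons, Nr4a2, Pitx3, En1, En2, Foxa1, Foxa2, Lmx1a, Lmx1b, Otx2 and Sox6. They were chosen by name, and all 10 were found among the 22815 genes of the expression table. The question was which of them are carried by the dopaminergic cells of the substantia nigra alone and which also by its GABAergic neurons.

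The cells came from C57Bl/6 mice carrying the GAD1-EGFP transgene, in which GABAergic neurons are green, and each cell was picked by hand from the dissociated substantia nigra pars reticulata (SNr) and sequenced on its own. The table holds 80 cells, 72 labelled GFP-positive and 8 labelled GFP-negative, from postnatal days 14, 15, 16 and 20. All cells carry the same genotype and no treatment, and the labels name no animal, so each group counts as 1 sample and no test was made between groups of cells. The SD given below is the spread from cell to cell. A gene was counted as detected above 1 transcript per 1000000 (TPM), and levels were compared as log2(TPM + 1), a scale that understates differences of low genes.

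The groups compared were chosen as follows. The GABAergic neurons are represented by those 62 GFP-positive cells in which over 5000 genes were detected, 9, 20, 24 and 9 of them from days 14, 15, 16 and 20. Of the GFP-negative cells, 4 had a Th level above 100 TPM and are called dopaminergic, namely cells 44 and 48 from day 14 and cells 75 and 86 from day 16. Th, tyrosine hydroxylase, makes the precursor of dopamine, and because it chose these cells its level of 4742, 7578, 5927 and 9481 TPM is a description. Cells 44, 48, 75 and 86 were estimated to hold 153423, 1595907, 884655 and 3917455 sequenced fragments, with 5174, 8859, 4478 and 9173 genes detected, whereas the 62 GFP-positive cells held 150686 to 6205538 fragments (median 1786872) and a median of 8238 genes. The shallow cell 44 and the gene-poor cell 75 therefore set the limit of what the dopaminergic group can show.

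The labels of the cells were checked against their markers. Ddc, which completes dopamine synthesis, and Slc6a3, the dopamine transporter, were at no less than 1561 and 2289 TPM in the 4 dopaminergic cells. The median level of Gad1, the main GABA-synthesizing enzyme, was 909 TPM in the GFP-positive cells, and it was 0, 53.1, 0.691 and 0 TPM in cells 44, 48, 75 and 86. The mean log2 level over the 8 oligodendrocyte markers was 2.82 to 4.65 in the dopaminergic cells and 0.74 to 8.03 (median 3.07) in the GFP-positive cells. Cell 44 stood apart by its oligodendrocyte precursor markers, with a mean log2 level of 4.79 over 5 genes against 0 to 0.20 in the other dopaminergic cells. Its Olig1 was at 394 TPM. The part of such RNA in the levels below was not tested, and the value without cell 44 is given for a difference of 1 or more on the log2 scale that it moves by over 1.5 times.

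By way of background, En1, En2 and Otx2 are homeobox factors that pattern the midbrain and its border with the hindbrain, and Lmx1a, Lmx1b, Foxa1 and Foxa2 act in the floor plate, from which dopaminergic progenitors arise. Nr4a2, also called Nurr1, is an orphan nuclear receptor that switches on the genes for dopamine synthesis, transport and storage as the neurons mature, and Pitx3 is a homeobox partner of it that is needed for neurons of the substantia nigra. Sox6 is found in substantia nigra dopaminergic neurons and Otx2 in those of the neighbouring ventral tegmental area, and several of the 10 factors are kept into adult life, when they support survival of the neurons.

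Nr4a2, Pitx3, Foxa1 and Sox6 were restricted to the dopaminergic cells, that is, detected in at least 50% of them and in under 10% of the GFP-positive cells. Only 0.77% of the 17265 genes above 1 TPM in any of the 66 cells met this rule. With 4 cells the shares are wide, 3 of 4 having an exact 95% interval of 19.4% to 99.4% and 2 of 4, for Foxa1, of 6.76% to 93.2%. If any level above 0 was counted as detected, only Pitx3 met the rule, because Nr4a2, Foxa1 and Sox6 were then seen in 11, 9 and 8 of the GFP-positive cells. En1 alone was partly shared, meaning detected in at least 50% of one group and in 10% to 50% of the other. It was found in all 4 dopaminergic cells and in 22 of 62 GFP-positive cells, and 7.25% of genes were partly shared in this direction. None of the 10 was shared, meaning detected in at least 50% of both groups, although 40.5% of all genes were. The remaining 5 factors, En2, Foxa2, Lmx1a, Lmx1b and Otx2, met none of these rules, each being detected in under 50% of both groups, as were 45.5% of genes. This class goes by the share of cells and not by level, and Otx2 was high in the few cells that had it. No factor was restricted to GFP-positive cells (1.47% of genes) or partly shared with the larger share there (4.56% of genes). Mean log2 levels were higher by 2 or more in the dopaminergic cells for Nr4a2, En1, Foxa1 and Sox6, 4 of 10 factors against 2.83% of all genes, and lower by 2 or more for none, against 5.43%.

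**Figure D1:**
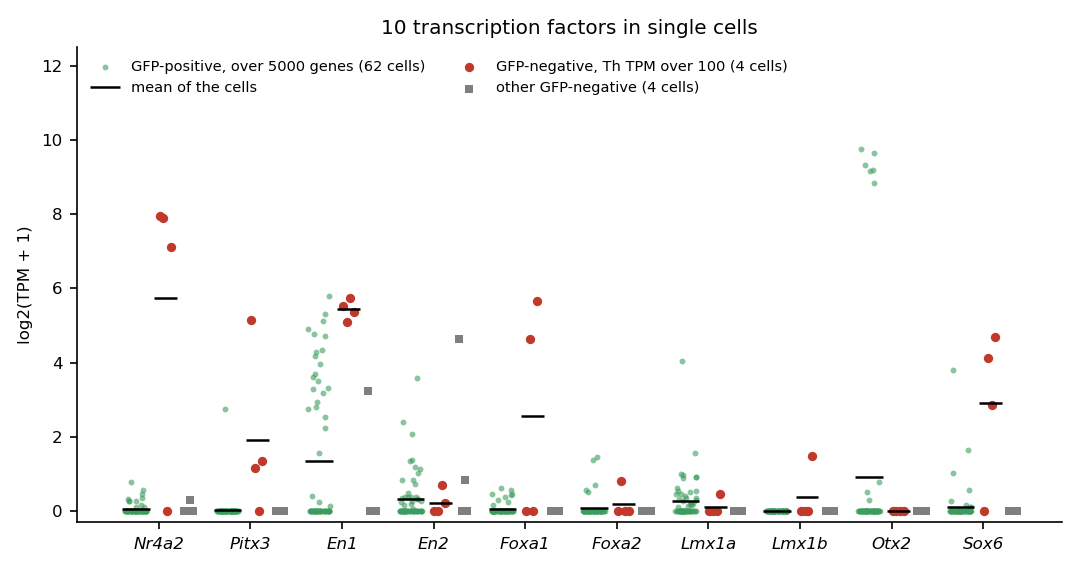
Level of each of the 10 factors, log2(TPM + 1) on the vertical axis, in every GFP-positive cell with over 5000 genes (green), every dopaminergic GFP-negative cell (red) and the other GFP-negative cells (grey squares), with black lines at the means of the groups compared. Nr4a2 is high in 3 red points and near 0 in all green ones, and Otx2 is high in 6 green points alone. En1 lies in a narrow band in the red points and spreads from 0 up to that band in the green ones.

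The factors of terminal identity, Nr4a2 and Pitx3, differed in how firmly they were measured. Nr4a2 (chr2:57106830-57124003 in GRCm38, minus strand) was at 246, 236, 0 and 138 TPM in cells 44, 48, 75 and 86, which rests on about 60.8, 550, 0 and 790 fragments. It was above 1 TPM in 0 of the 62 GFP-positive cells, a count that allows a share of up to 4.84%, and its highest level there was 0.714 TPM. Thus 3 dopaminergic cells lay far above every GFP-positive cell while cell 75, with Th at 5927 TPM, was at 0. The mean log2 level was 5.74 ± 3.84 (SD, n = 4 cells) in dopaminergic and 0.06 ± 0.15 (SD, n = 62 cells) in GFP-positive cells, a difference of 5.68, which ranked 21 among the 17265 genes. Because of cell 75 the groups overlapped, as they did for all 10 factors, whereas 0.133% of all genes had every dopaminergic cell above every GFP-positive cell. A single Nr4a2 fragment would have stood for less than 1 TPM in 54 of the 62 GFP-positive cells.

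Pitx3 (chr19:46135685-46148326, minus strand) was at 34.2, 1.24, 0 and 1.55 TPM in cells 44, 48, 75 and 86. These values come from only about 2.96, 1.01 and 3.11 fragments in the cells where it was seen, and the highest level belongs to the shallowest cell. Among GFP-positive cells it was detected once, in cell 41 at 5.8 TPM and about 3.02 fragments. Its difference of 1.87 fell to 0.79 without cell 44.

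The forkhead factors of the floor plate parted from each other. Foxa1 (chr12:57540628-57546916, minus strand) was at 0, 24, 0 and 49.6 TPM in cells 44, 48, 75 and 86, from about 49.8 and 252 fragments in cells 48 and 86. It was above 1 TPM in 0 of 62 GFP-positive cells and reached 0.552 TPM at most. The 2 deepest dopaminergic cells carried Foxa1 and the others did not. In those others, 1 fragment would have stood for 4.55 TPM in cell 44 and 0.693 TPM in cell 75. The part of depth in these zeros was not tested. The difference of mean log2 levels was 2.52, with a mean of 2.58 ± 3.00 (SD, n = 4 cells) in the dopaminergic cells, and it was 1.83 without cell 48, 1.49 without cell 86 and 1.97 with FPKM in place of TPM. Without cell 48 or cell 86 Foxa1 was detected in 1 of the 3 cells left and no longer counted as restricted. Foxa2, its close relative, was at 0.773 TPM in cell 48 from about 1 fragment and at 0 in cells 44, 75 and 86. In the GFP-positive cells Foxa2 was detected in 2, at 1.6 and 1.76 TPM. The transcripts of Foxa1 and Foxa2 share 17 stretches of 25 bases, the length of 1 read, and En1 with En2, Lmx1a with Lmx1b and Nr4a2 with Nr4a1 share none.

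Sox6 (chr7:115470872-116038796, minus strand), the factor of substantia nigra dopaminergic neurons, was at 0, 16.4, 6.31 and 25.1 TPM in cells 44, 48, 75 and 86. About 96.1, 25.8 and 361 fragments stand behind the values above 0. In the GFP-positive cells it was detected in 3 of 62, at 12.9, 2.14 and 1.06 TPM in cells 1, 40 and 51. The dopaminergic mean of 2.92 ± 2.09 (SD, n = 4 cells) exceeded that of the GFP-positive cells by 2.80 on the log2 scale, and only 1 GFP-positive cell, cell 1, reached the range of the 3 dopaminergic cells that had it. Otx2, known from the neighbouring ventral tegmental area, was at 0 TPM in all 4.

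Elements bound by the restricted factors were looked up in the 300 bases around the start sites of 9 of the factors and of 13 of 16 genes of dopamine synthesis, transport and signalling (RefSeq windows in GRCm38.p6, none used here for En2, Ret, Chrna6 and Chrnb3, 250 bases before to 50 after the start, both strands). The letters searched were AAAGGTCA, which Nr4a2 binds as a monomer, TAATCC, bound by Pitx and Otx proteins, and TGTTTAC, bound by Foxa proteins. Of all 32851 windows, 1.51%, 7.06% and 3.65% hold them. Among 19 windows of the factors 1, 2 and 1 hold them, and among 16 windows of the dopamine genes 1, 0 and 1. The windows of Th, Nr4a2, Pitx3 and En1 hold none of these letters. Shown are the windows of 2 restricted factors and of 2 genes high in the dopaminergic cells that hold an Nr4a2 or Foxa element, with the matching letters in capitals. A match is a description of the letters and not of a bound site.
Foxa1, chr12:57546062-57546361, minus strand, Foxa element on the opposite strand: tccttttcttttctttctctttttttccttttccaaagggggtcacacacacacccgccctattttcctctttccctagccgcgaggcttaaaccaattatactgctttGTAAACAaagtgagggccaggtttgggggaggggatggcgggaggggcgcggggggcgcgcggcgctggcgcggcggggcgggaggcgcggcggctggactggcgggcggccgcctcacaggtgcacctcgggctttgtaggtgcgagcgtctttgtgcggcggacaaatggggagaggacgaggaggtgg
Sox6, chr7:116030998-116031297, minus strand, 1 of 6 start windows, Nr4a2 element: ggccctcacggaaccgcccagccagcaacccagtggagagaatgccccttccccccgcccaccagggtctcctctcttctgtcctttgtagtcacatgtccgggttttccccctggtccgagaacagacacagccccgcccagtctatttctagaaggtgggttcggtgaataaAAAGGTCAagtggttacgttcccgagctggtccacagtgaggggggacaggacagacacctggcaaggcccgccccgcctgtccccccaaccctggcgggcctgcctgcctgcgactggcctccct
Ddc, chr11:11898095-11898394, minus strand, 1 of 2 start windows, Nr4a2 element on the opposite strand: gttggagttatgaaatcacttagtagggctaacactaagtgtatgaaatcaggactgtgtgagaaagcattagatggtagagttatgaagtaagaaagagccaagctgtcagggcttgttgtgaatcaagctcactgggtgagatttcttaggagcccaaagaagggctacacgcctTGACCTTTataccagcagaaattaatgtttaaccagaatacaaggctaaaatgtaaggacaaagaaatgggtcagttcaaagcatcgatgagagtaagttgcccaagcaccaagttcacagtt
Dlk1, chr12:109452573-109452872, plus strand, with 2 Foxa elements: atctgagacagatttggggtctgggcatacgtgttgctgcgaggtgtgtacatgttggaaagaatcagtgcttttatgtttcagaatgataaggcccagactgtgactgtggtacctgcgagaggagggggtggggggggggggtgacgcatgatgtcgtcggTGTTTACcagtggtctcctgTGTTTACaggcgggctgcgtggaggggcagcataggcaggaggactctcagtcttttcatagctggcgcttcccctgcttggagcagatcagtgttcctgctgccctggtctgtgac
The Nr4a2 element starts 73 bases before the Ddc start and 76 bases before that of Sox6. Ddc stood at 1891, 2855, 1561 and 3750 TPM in cells 44, 48, 75 and 86, where Nr4a2 was at 246, 236, 0 and 138 TPM. In GFP-positive cells the highest Ddc was 177 TPM. Dlk1, a membrane protein of the Notch ligand family, was at 211, 0.743, 98 and 102 TPM in cells 44, 48, 75 and 86. Foxa1 was at 0, 24, 0 and 49.6 TPM in these cells. Whether the elements bear on these levels was not tested.

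En1 (chr1:120602418-120607992, plus strand) varied least among the factors detected in more than 1 dopaminergic cell, at 45.4, 33.1, 52.8 and 40.3 TPM in cells 44, 48, 75 and 86. The mean log2 level was 5.44 ± 0.28 (SD, n = 4 cells), and it was the only factor present in all 4, also in cell 75, where Nr4a2, Pitx3 and Foxa1 were at 0. In GFP-positive cells it was at 0 to 54.3 TPM with a median of 0 and a mean log2 level of 1.35 ± 1.92 (SD, n = 62 cells). It was detected in 22 of 62 (35.5%, exact 95% interval 23.7% to 48.7%), and over those 22 cells the median was 11.6 TPM. Only 3 GFP-positive cells, cells 35, 14 and 59 at 54.3, 39.1 and 34.2 TPM, exceeded the lowest dopaminergic cell. The difference of mean log2 levels, 4.09, ranked 65 of 17265. Of the GFP-positive cells, 1 of 9, 7 of 20, 11 of 24 and 3 of 9 carried it on days 14, 15, 16 and 20, with overlapping intervals.

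En2, which can replace En1 in development, was at 0, 0, 0.627 and 0.175 TPM in cells 44, 48, 75 and 86, no more than about 1 fragment in any. It was above 1 TPM in 8 of 62 GFP-positive cells (12.9%), at 1.04 to 11 TPM. The difference of mean log2 levels was -0.10, smaller than either SD, and -0.02 without cell 44. En1 and En2 were detected together in 4 cells, where the product of their shares gives 2.84.

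The LIM homeobox factors were barely seen in these postnatal cells. Lmx1b was at 1.81 TPM in cell 86, from about 14.1 fragments, and at 0 in the other dopaminergic and all 62 GFP-positive cells. Lmx1a was at 0.373 TPM in cell 86, about 2 fragments, and at 0 in cells 44, 48 and 75. Among GFP-positive cells Lmx1a was detected in 2, cell 11 at 15.4 TPM and cell 37 at 1.96 TPM. The differences of mean log2 levels were 0.37 for Lmx1b and -0.15 for Lmx1a. One fragment of either would have stood for at most 4.33 TPM in the dopaminergic cells.

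**Figure D2:**
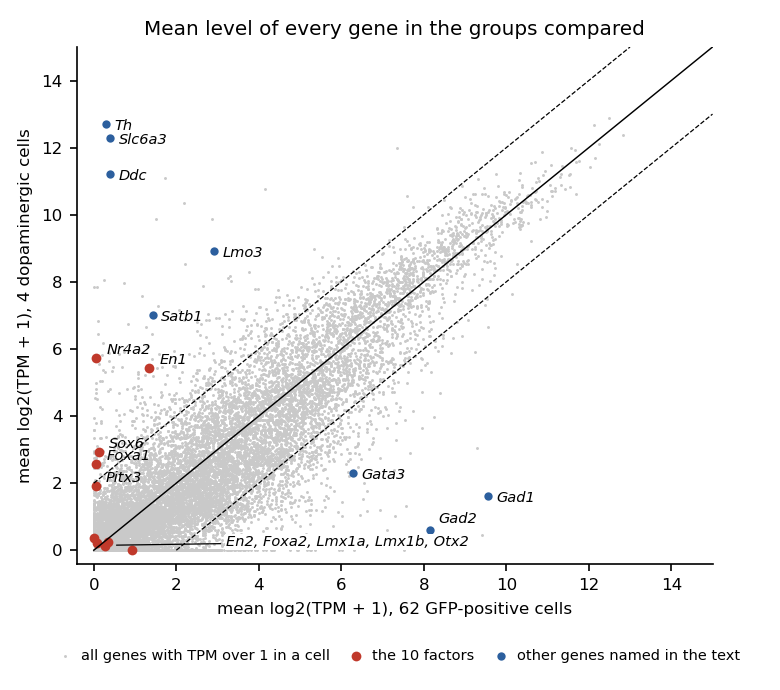
Mean log2(TPM + 1) of every gene in the 62 GFP-positive cells (horizontal) and the 4 dopaminergic cells (vertical), with the 10 factors in red and other genes named in the text in blue; the solid line marks equal means and the dashed lines a difference of 2. Nr4a2, En1, Sox6 and Foxa1 lie above the upper dashed line, Pitx3 just below it and the other factors near the origin.

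Otx2 (chr14:48657677-48673819, minus strand) showed the widest contrast among GFP-positive cells. It was at 864, 804, 640, 581, 576 and 461 TPM in cells 53, 28, 12, 73, 24 and 72, and at no more than 0.739 TPM in the other 56. These 6 cells, 9.68% of 62 (exact 95% interval 3.63% to 19.9%), came from all 4 ages, 1, 2, 2 and 1 from days 14, 15, 16 and 20, and Otx2 in them exceeded every level of every other factor in any cell. Gad1 was at 603 to 1987 TPM in them, so they were GABAergic by this marker, and Th was at 0. Other dopaminergic markers were seen in some of them, Ddc at 177 TPM in cell 72, Slc6a3 at 70.6 TPM in cell 24 and Slc18a2 at 79.3 TPM in cell 73. Over 7 dopaminergic markers the mean log2 level of the 6 cells was 1.27 to 2.48. The median over the 62 cells was 0.77 and the highest 2.48, against 8.33 to 10.7 in the dopaminergic cells. None of the 6 cells carried En1. Since Otx2 missed all 4 dopaminergic cells, its difference of mean log2 levels was -0.93, and it was -6.01 as the log2 ratio of mean TPM + 1, a scale on which 6 high cells weigh more.

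The 62 GFP-positive cells carried few of the factors at once. There were 24 cells with none detected, 32 with 1 and 6 with 2, while cells 44, 48, 75 and 86 carried 3, 5, 2 and 6. Apart from En1 with En2, the pairs seen were En1 with Sox6 and En2 with Otx2, each in 1 cell. Th was above 1 TPM in 4 of the GFP-positive cells, cells 7, 15, 17 and 76 at 26.6, 48, 22.9 and 7.28 TPM. Of these cells 3 carried En1, at 17, 8.04 and 6.03 TPM, and none carried any other of the 10. Spearman's rho of En1 with the number of genes detected was 0.26 over the 62 cells, and 0.14 with the estimated fragments, given as a description.

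No GFP-positive cell carried both En1 and Otx2, where the product of their shares gives 2.13 cells. The 2 factors were then set beside the regulators of midbrain GABAergic fate. These regulators were listed with earlier results of the data known, and the ones named here were picked after their values were seen. Foxp2, a forkhead factor, was detected in 1 of the 22 cells with En1 and in 35 of the 40 without. Six3, a homeobox factor of the forebrain and eye, was detected in 2 of the 22 and 29 of the 40. Zfpm2, a zinc finger cofactor of the Gata proteins, went the other way, in 21 of the 22 and 19 of the 40, as did Pax5, a paired box factor of the midbrain and hindbrain border, in 13 of the 22 and 4 of the 40. The cells with En1 had a median of 8837 genes detected and those without 7737. Within days 14, 15, 16 and 20 the medians were 8574, 8972, 8775 and 6531 with En1 and 9159, 7417, 7405 and 8238 without, and the part of this in the counts was not tested. Within days 15 and 16, which hold 18 of the 22 cells, Foxp2 was detected in 0 of 7 and 1 of 11 cells with En1 against 11 of 13 and 11 of 13 without.

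The 6 cells with Otx2 carried Sox14, a regulator of GABAergic fate, at 251 to 519 TPM. Dmbx1, a homeobox factor of the early midbrain, was at 36 to 231 TPM in them and Meis2, a homeobox factor of the TALE class, at 94.8 to 311 TPM. In the other 56 cells Sox14, Dmbx1 and Meis2 were detected in 13, 1 and 7. Of the 13 with Sox14, 10 were among the 22 cells with En1, at up to 130 TPM, and 3 among the 34 with neither. Foxp2 was detected in all 6, Six3 in none and Otx1, the relative of Otx2, in none of the 6 but 27 of the 56. Gata3, which selects GABAergic fate in the midbrain, was detected in 6 of 6 and 55 of 56. Its median level was 25.1 TPM in the cells with En1, 195 TPM in those with Otx2 and 181 TPM in those with neither. The 34 cells with neither En1 nor Otx2 carried Six3 in 29 and Foxp2 in 29.

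**Figure D3:**
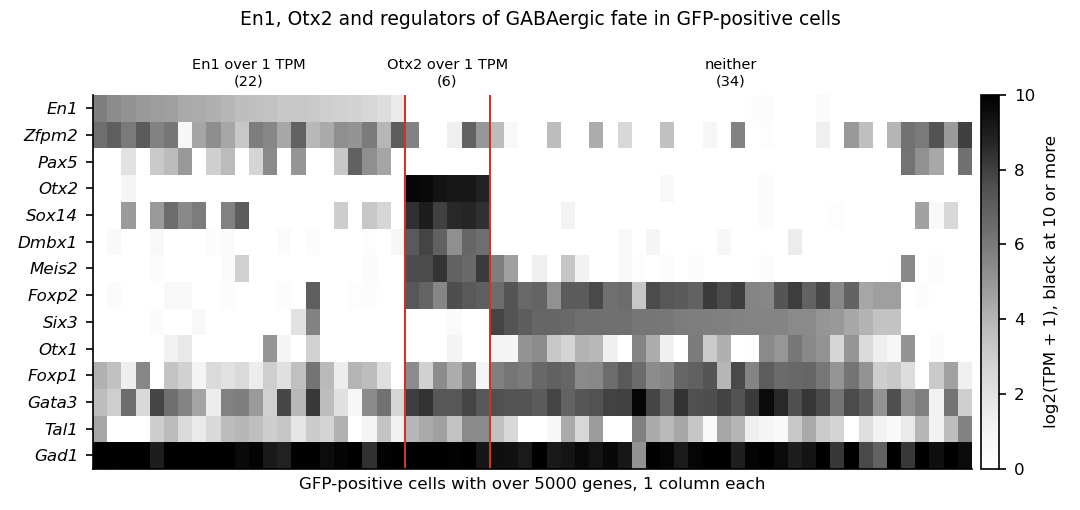
Level of En1, Otx2 and other regulators, with Gad1, in the 62 GFP-positive cells, 1 column per cell, from white at 0 to black at a log2(TPM + 1) of 10 or more, set apart by red lines into 22 cells with En1, 6 with Otx2 and 34 with neither, and ordered within each block by En1, Otx2 or Six3. Zfpm2 and Pax5 fill most of the first block, Sox14, Dmbx1 and Meis2 the second, and Six3 and Otx1 the third, while Foxp2 is found in both of the latter.

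The genes that the factors serve were set beside them. Of 16 genes of dopamine synthesis, storage and signalling, 12, among them Th, which chose the cells, had mean log2 levels higher by 2 or more in the dopaminergic cells and 0 lower. Over all genes tested these shares were 2.83% and 5.43%. The median difference was 5.58 against -0.16 over all genes. Slc6a3 stood at 2289, 7078, 4947 and 7885 TPM in cells 44, 48, 75 and 86, and Slc18a2, which loads dopamine into vesicles, at 637, 1724, 1368 and 1948 TPM. Slc18a2 was also detected in 30 of 62 GFP-positive cells, at up to 96.1 TPM. Ret, the receptor for GDNF family ligands, was at 125, 171, 166 and 355 TPM. Gch1, which makes the cofactor of Th, was at 15.6, 48.8, 59 and 22.5 TPM. Drd2, the dopamine autoreceptor, was at 109, 52.9, 28.6 and 64 TPM, and the nicotinic subunit Chrnb3 at 116, 106, 85 and 123 TPM. These genes were also seen in some of the 62 GFP-positive cells. Drd2 and Chrnb3 were each detected in 9, at up to 87.6 and 388 TPM. Ret was detected in 23 and Gch1 in 3, at up to 52.2 and 31.6 TPM. Of the 4 dopaminergic cells, cell 75, without Nr4a2, had the highest Gch1 and the lowest Ddc, Drd2 and Chrnb3. Cell 44, with the highest Nr4a2, had the lowest Th, Slc6a3, Slc18a2, Ret and Gch1. It was also at 0 for Aldh1a1, a retinaldehyde dehydrogenase of ventral substantia nigra neurons, and for Chrna6, a nicotinic subunit. Cells 48, 75 and 86 were at 10237, 9146 and 8405 TPM for Aldh1a1 and at 1269, 1494 and 2016 TPM for Chrna6. In GFP-positive cells Aldh1a1 was detected in 18 and Chrna6 in 6, at up to 495 and 815 TPM. Pts, of cofactor synthesis, was detected in both groups and higher by 2.05. Qdpr, which recycles the cofactor, and Cplx1, a regulator of vesicle release, were detected in both as well, with differences of -1.34 and 1.59. Qdpr was at 405, 296, 0 and 344 TPM in cells 44, 48, 75 and 86 against a median of 250 TPM, so only cell 75 was below that median.

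Among 23 other regulators of the dopaminergic lineage, 20 were above 1 TPM in some cell, of which 3 were higher by 2 or more and 1 lower, against 2.83% and 5.43% of all genes. Satb1 and Lmo3 of the 3 are described here. Satb1, a chromatin organizer, was at 174, 163, 67.2 and 144 TPM in cells 44, 48, 75 and 86 and at 27.9 TPM at most in GFP-positive cells, so these groups did not overlap, unlike those of any of the 10 factors. Lmo3, a LIM-only cofactor, was at 77.4, 981, 813 and 879 TPM against a median of 3.22 TPM. Pbx3 and Klf9 were detected in at least 50% of both groups with differences of 1.43 and -0.06. Myt1l, a zinc finger factor of neurons in general, was lower by 2.51, at 27, 15.3, 0 and 35 TPM against a median of 72.3 TPM. The median difference of the 20 was 0.17.

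Relatives of the 10 factors, listed with the retinoid receptors Rxra, Rxrb and Rxrg, were low in the dopaminergic cells with 1 exception, Rxrb. Of these 11 genes, 10 were above 1 TPM in some cell, with a median difference of -0.39. Of these 10, 0 were higher or lower by 2 or more, against 2.83% and 5.43% of all genes, so few or none would be looked for in so short a list. Nr4a1, Nr4a3, Otx1, Rxra and Rxrg were at 0 TPM in cells 44, 48, 75 and 86. Rxrb, a retinoid receptor with which Nr4a2 can pair, was the only gene of this list detected in at least 50% of both groups, as were 40.5% of all genes. It was at 124, 0, 3.94 and 25.2 TPM in cells 44, 48, 75 and 86 against a median of 3.82 TPM.

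Some regulators of GABAergic fate were lower in the dopaminergic cells. Of 26 on the list, 19 were above 1 TPM in some cell, of which 0 were higher and 7 lower by 2 or more there, against 2.83% and 5.43% of all genes, with a median difference of -1.22. Zfpm2 and Six3 were at 0 TPM in all 4 dopaminergic cells and detected in 40 and 31 of the 62 GFP-positive cells. Tal1, a partner of the Gata proteins, was at 0, 0, 0 and 0.289 TPM and detected in 46 of 62. Gata3 was at 0, 17.2, 9.73 and 2.14 TPM against a median of 155 TPM, so 3 dopaminergic cells held a low level of it, as cell 48 did of Gad1. Lhx5, Foxp1 and Foxp2 were lower by 2.40, 2.63 and 2.29, Foxp2 being at 86.6 TPM in cell 44 and at 0 in the rest.

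Genes that part dopaminergic neurons into subtypes varied from cell to cell in the dopaminergic group. Of 23 listed, 21 were above 1 TPM in some cell, of which 8 were higher by 2 or more and 2, Gad2 and Slc32a1, lower, against 2.83% and 5.43% of all genes, with a median difference of 0.82. Anxa1, an annexin of ventral substantia nigra neurons, was at 0, 114, 4947 and 5021 TPM in cells 44, 48, 75 and 86 and at 0 in every GFP-positive cell. Calb2, a calcium-binding protein, was at 0, 812, 603 and 441 TPM. Sox6, Aldh1a1, Anxa1, Calb2 and Chrna6 were all at 0 in cell 44 and above 0 in cells 48, 75 and 86, whereas Lpl, a lipase, was at 76.3 TPM in cell 44 and at 1.63 to 4.99 TPM in the others. Grp, a peptide, was at 0, 85.8, 0 and 10.1 TPM and Cck, another, at 83, 62, 0 and 0 TPM. Ndnf, a secreted factor, was at 92.2, 65.4, 0 and 21.9 TPM, the same cells as Nr4a2. Sncg, a synuclein, was high in all 4, at 4589, 1767, 1625 and 1764 TPM, and Igf1, a growth factor, was at 27.2, 28, 101 and 22.7 TPM. With 1 cell on one side and 153423 fragments in it, cell 44 cannot be told apart from a cell measured at low depth for genes of low level. In cells 48, 75 and 86 Sox6 was at 6.31 to 25.1 TPM. Calb2, Chrna6 and Aldh1a1 were not low there, at 441 to 812, 1269 to 2016 and 8405 to 10237 TPM. The part of depth in the zeros of cell 44 was not tested.

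**Figure D4:**
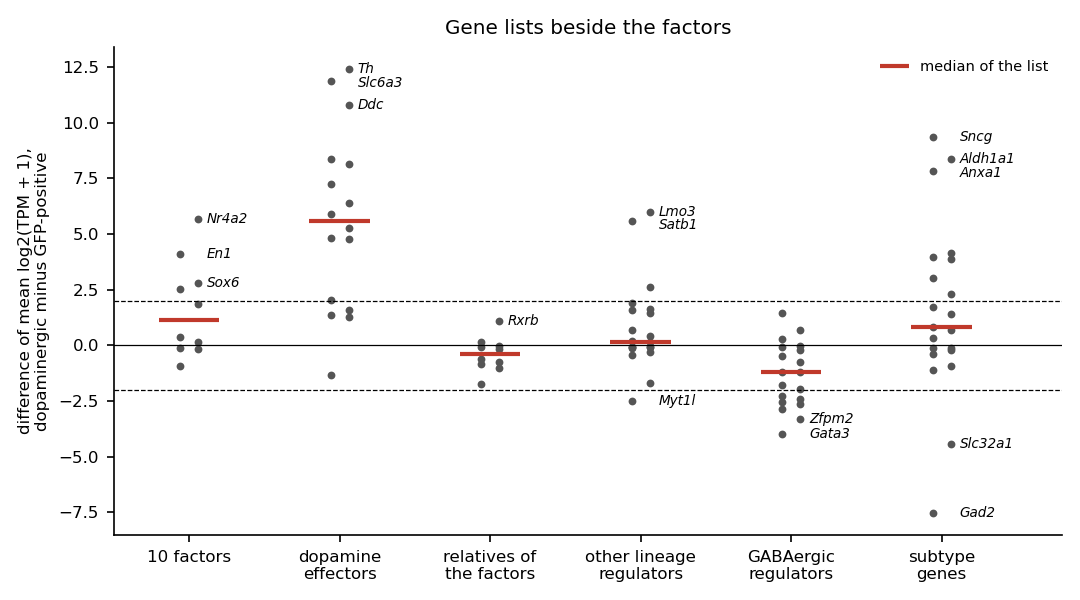
Difference of mean log2(TPM + 1), dopaminergic minus GFP-positive cells, for each gene above 1 TPM in some cell of the 6 lists, 1 point per gene, with red bars at the medians, dashed lines at differences of 2 and genes of the text named at the extremes. The dopamine genes lie highest, the relatives of the factors stay within the dashed lines, and the GABAergic regulators reach below the lower one.

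The genes whose pattern was most like that of a restricted factor were ranked by Pearson's r of log2 levels over the 66 cells of both groups, a measure carried by the few dopaminergic cells, as a description with no test. For Nr4a2 they were Tyrp1 (r = 0.98), Vill (0.98) and Slc35d3 (0.97), each at 0 in cell 75 and above 5 TPM in cells 44, 48 and 86. For Pitx3 Myzap came first (0.91), at 51.4 TPM in cell 44 and 0 in cells 48, 75 and 86, followed by 8 genes tied at 0.84, among them Ropn1l and Tnfrsf1a, which were also above 0 in cell 44 alone of the 4. For Foxa1 they were 1700042O10Rik (0.98), Myof (0.98) and Depdc7 (0.98), which among the dopaminergic cells were seen in cells 48 and 86 only. For Sox6 they were Rasd1 (0.87), Prph (0.84) and Cacna2d1 (0.84). For En1, Spearman's rho over the 62 GFP-positive cells among 10678 other genes was highest for Epha5 (0.67), Rbms1 (0.65) and Kirrel3 (0.64).

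The 4 GFP-negative cells without Th above 100 TPM held almost none of the factors. Cells 68, 70 and 77 carried the oligodendrocyte markers Mbp at 25383, 22368 and 922 TPM and Mog at 5998, 10176 and 430 TPM, and 0 of the 10 factors were detected in them. Cell 47 had Snap25, of the nerve terminal, at 1096 TPM beside Mbp at 6889 TPM and Gfap, an astrocyte filament, at 1025 TPM. Aqp4, another astrocyte marker, was at 0 TPM in it. Of the GABAergic markers, Gad1 was at 33 TPM, Gad2 at 0 and Slc32a1 at 46.1 TPM. Cell 47 carried En1 at 8.5 TPM and En2 at 23.9 TPM, from about 1.03 and 4.01 fragments. When all 8 GFP-negative cells were taken by their label instead of by Th, the difference from GFP-positive cells was 2.85 for Nr4a2, 1.77 for En1, 1.34 for Sox6, 1.23 for Foxa1 and 0.91 for Pitx3, and no factor met the rule for being restricted, since the other 4 cells hold none of these factors but En1 in 1.

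Only days 14 and 16 hold both groups. The difference of Nr4a2 within day 14 was 7.88 and within day 16 3.47, where cell 75 is 1 of 2 dopaminergic cells. For En1 it was 4.90 and 4.03, for Foxa1 2.28 and 2.77, for Sox6 1.75 and 3.76 and for Pitx3 2.84 and 0.68. All 5 were higher in the dopaminergic cells at both ages. Among GFP-positive cells Nr4a2, Foxa1 and Lmx1b were detected at none of the 4 ages.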

How the data were processed

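Single cells of the SNr were sequenced with the Smart-seq2 method as read pairs of 25 bases. The authors aligned the reads with TopHat2 2.0.10 to mm10 and quantified them with Cufflinks 2.2.1 and Cuffnorm, per the labels, and deposited FPKM, normalized by transcript length and mapped fragments, in a table of 22815 genes by 80 cells. The library-size method is not given in the sources used here. For each cell, the deposited FPKM were divided by their sum and scaled to a total of 1000000 to give TPM, with a pseudocount of 1 on the log2 scale.

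The 10 factors and the gene lists were chosen with earlier results of these data known. Named genes were the 10 factors, list genes with a difference of 2 or more or detected in at least 50% of both groups, genes defining a cell type, and the 3 genes most like a factor. Any other gene was picked after its values were seen, and genes withheld from this text are not reported here.

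Because the labels name no animal, no test was run, and p-values are not given. Intervals of shares are exact (Clopper-Pearson, 95%) and, like the limit of 3 counts behind a share of 0, cover counting error only, since amplified fragments are not independent molecules. Fragments per cell were estimated from the spacing of low FPKM of 1083 genes with 1 transcript longer than 2500 bases. In the median cell, 73% of low values lay within 0.05 steps of a whole number. In data simulated from known depths, 100% of 40 depths were recovered within 5%. The simulation drew whole fragments and used the same length rule as the estimate. It therefore cannot show how closely the deposited FPKM follow that rule. Fragments of a factor assume its longest GENCODE M21 transcript (GRCm38) less 200 bases. The calculation of differences was tested on simulated data as well. Alternatives changed the pseudocount, the unit, the detection limit, the cells and the ages. Python 3.11.15, pandas 2.3.3, numpy 2.4.6 and scipy 1.17.1 were used.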

Additional observations from a re-analysis of the deposited data

Results flagged for a closer look

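Of 23 sets of values of a factor over 4 to 10 cells, 12 held a cell far from the others by Dixon's 95% limit, which chance alone passes in about 1 set of 20, although sets that are 0 in all cells but 1 always pass it. Among the dopaminergic cells these were Nr4a2 in cell 75, at 0 TPM, and Lmx1b in cell 86, at 1.81 TPM. Among all 8 GFP-negative cells they were Pitx3 in cell 44 (34.2 TPM), En2 in cell 47 (23.9 TPM) and Lmx1b in cell 86 again. Among the 9 GFP-positive cells of day 14 they were Pitx3 in cell 41 (5.8 TPM), En1 in cell 46 (8.78 TPM), En2 in cell 45 (3.2 TPM), Foxa2 in cell 42 (1.76 TPM) and Otx2 in cell 53 (864 TPM). Among the 9 of day 20 they were En2 in cell 36 (11 TPM) and Otx2 in cell 28 (804 TPM).

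The 10 GFP-positive cells with 5000 or fewer genes and the 4 other GFP-negative cells were outside the comparison. In them, a factor exceeded its highest level among the 62 GFP-positive cells 5 times. Sox6 was at 139 TPM in cell 38, which had 4364 genes, from about 150 fragments. In cell 38 Gad1 was at 0 TPM, Snap25 at 12.3 TPM and Olig1 at 832 TPM, so its markers were not those of a GABAergic neuron. En2 was at 21.6 TPM in cell 57 and 13.6 TPM in cell 56, cells with 1372 and 1310 genes, and at 23.9 TPM in cell 47. In cells 57 and 56 Gad1 was at 1.59 and 0 TPM, Mbp at 54037 and 43657 TPM and Snap25 at 17.7 and 3182 TPM. Nr4a2 was at 1.24 TPM in cell 56, its only detection in a GFP-positive cell, from about 2.39 fragments.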

How the results depend on the processing

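The differences of the 10 factors were recomputed under 18 alternatives, of which those on cells with over 5000 genes among the dopaminergic cells and on GFP-positive cells without Th were added after seeing the data. No factor higher by 2 or more changed direction. With FPKM in place of TPM, Foxa1 became 1.97, with 3 restricted factors and 3 higher by 2 or more, and detection above 5 or 10 TPM gave 3 restricted factors. Of 180 values, 176 moved by less than the SD between cells. This count includes values that could not move, since a lower and a higher Th limit chose the same 4 dopaminergic cells. Keeping only dopaminergic cells with over 5000 genes was the same as leaving out cell 75, so those values were counted again. With a pseudocount of 0.1, En1 became 6.18 and Sox6 4.98. With all 8 GFP-negative cells by label En1 became 1.77, the number of restricted factors fell from 4 to 0 and that of factors higher by 2 or more from 4 to 1. As a log2 ratio of mean TPM + 1, Otx2 became -6.01. When detection meant any TPM above 0, 1 factor was restricted, since low values of Nr4a2, Foxa1 and Sox6 then counted in 11, 9 and 8 GFP-positive cells. Leaving out each dopaminergic cell in turn gave 3 to 4 restricted factors, 4 to 5 higher by 2 or more and 0 shared. Without cell 48 Foxa1 became 1.83 and without cell 86 1.49. Without cell 75, Nr4a2 became 7.59 and Pitx3 2.51. No factor was shared under any alternative run. Depth limits the absence of a factor most in cell 44, where 1 fragment of Sox6 is worth 1.61 TPM and 1 of Pitx3 11.5 TPM, and 4 cells cannot show how often a dopaminergic neuron lacks a factor.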
